A study of Homo sapiens with 4 samples.

Results

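Mitochondrial ribosomal proteins were followed in LNCaP, an established prostate cancer cell line that depends on androgen, after treatment with exosomes from PC-3 cells, an androgen-independent line of the same cancer. Exosomes are small vesicles that cells release. The members were chosen by name: every probe set whose annotation gives a single gene, with a symbol of MRPL or MRPS, digits and at most 1 letter. That rule found 164 of the 44988 probe sets that name 1 gene, and they cover 74 of 18132 genes. The large subunit (MRPL symbols) had 98 probe sets for 47 genes and the small subunit (MRPS symbols) 66 for 27 genes. Of the 77 genes listed as mitoribosomal under such symbols, 3 (MRPL23, MRPL53 and MRPS24) had no probe set naming them alone. The study has 4 Affymetrix arrays of LNCaP RNA, 2 from cells given PC-3 exosomes and 2 from controls that received the buffer PBS. Both groups grew in the same medium with fetal bovine serum. Dose, exposure time and whether the arrays of a group came from separate cultures are not given in the labels, so the spread between them may be technical alone.

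Mitochondria keep a small genome and translate its few messages, all for subunits of the respiratory chain and ATP synthase, on ribosomes of their own. The mitochondrial genome supplies the ribosomal RNA, while every protein of the mitochondrial ribosome is encoded in the nucleus, made in the cytosol and imported. The small subunit holds the mRNA and decodes it, and the large subunit joins the amino acids. Many of these proteins descend from bacterial ribosomal proteins, and others exist in mitochondria only. The promoters of the nuclear genes are known for binding sites of ETS factors such as GABP, of NRF1 and of YY1.

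Intensities were normalized by the authors, and the median per array was 111.3 and 110.8 with exosomes, against 112.4 and 112 with PBS. Of 7 LNCaP markers, 4 had a probe set naming them alone, and none passed the test (limma). KLK3, which encodes PSA, was at 13974 and 14046 with exosomes, against 14526 and 13847 with PBS, and is the one of the 4 whose groups overlapped. The groups did not overlap in the other 3 (75%, against 39.8% of all genes). TMPRSS2 was at 7120 and 7328 with exosomes, against 6509 and 6636 with PBS (log2 fold change 0.14), while KLK2 and HOXB13 had -0.074 and -0.046. The labels' text on RNA extraction names brain tissue. Of 9 brain markers measured, 3 had group means under the mean of the background control probe sets, among them AQP4, an astrocyte water channel, at 24.9 and 24.3 with exosomes and 21.2 and 24.3 with PBS. None of the 9 passed the test (limma). The groups did not overlap in 6 of them (66.7%, against 39.8% of all genes). An unadjusted p under 0.05 was found in 3 (33.3%, against 10.9% of all genes). Among these 3, MBP, a myelin protein, read 867 and 868 with exosomes, against 764 and 764 with PBS. The other 2 of these, MOBP and NEFL, lay the other way, at log2 fold changes of -0.19 and -0.15. Of 7 PC-3 markers measured, 0 passed the test, and 1 had both group means under the background controls. VIM read highest, at 506 and 543 with exosomes, against 574 and 528 with PBS. KRT5 was at 197 and 145 with exosomes, against 151 and 166 with PBS. CAV1, of caveolae, was at 73.8 and 68.8 with exosomes, against 69.0 and 75.4 with PBS.

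Because 67 of the 74 genes have an entry in RefSeq's promoter table (build GRCh38.p14, 250 bases before to 50 after a transcript start), their promoters were read first, to show what the genes share beyond the name. A stretch from 150 bases before to 20 after the start is given for 6 members. They are the 2 with the highest fitted change, the 2 with the lowest, and 2 picked because they hold both ETS and YY1 letters. All read 5′ to 3′ along the gene, and capitals mark motif letters found on either strand.
MRPL30, chr2:99181034-99181203, plus strand: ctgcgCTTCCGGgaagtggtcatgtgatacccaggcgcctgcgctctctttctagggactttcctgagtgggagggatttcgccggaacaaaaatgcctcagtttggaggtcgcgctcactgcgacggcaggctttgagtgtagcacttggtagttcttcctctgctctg
MRPS35, chr12:27710682-27710851, plus strand: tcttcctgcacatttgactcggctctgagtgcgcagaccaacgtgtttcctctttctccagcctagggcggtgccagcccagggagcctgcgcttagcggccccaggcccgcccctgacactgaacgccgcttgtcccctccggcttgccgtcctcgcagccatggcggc
MRPL11, chr11:66438829-66438998, minus strand: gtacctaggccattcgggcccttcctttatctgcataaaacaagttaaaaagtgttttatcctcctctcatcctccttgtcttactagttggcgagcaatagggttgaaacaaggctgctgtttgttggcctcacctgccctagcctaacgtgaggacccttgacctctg
MRPS31, chr13:40771171-40771340, minus strand: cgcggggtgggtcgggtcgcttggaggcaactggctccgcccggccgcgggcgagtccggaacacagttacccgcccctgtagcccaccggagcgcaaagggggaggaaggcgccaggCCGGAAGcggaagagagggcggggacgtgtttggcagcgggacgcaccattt
MRPS18A, chr6:43687772-43687941, minus strand: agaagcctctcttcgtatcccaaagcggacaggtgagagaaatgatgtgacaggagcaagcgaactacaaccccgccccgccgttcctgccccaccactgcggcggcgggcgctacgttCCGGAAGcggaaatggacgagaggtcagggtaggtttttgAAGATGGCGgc
MRPS10, chr6:42217842-42218011, minus strand: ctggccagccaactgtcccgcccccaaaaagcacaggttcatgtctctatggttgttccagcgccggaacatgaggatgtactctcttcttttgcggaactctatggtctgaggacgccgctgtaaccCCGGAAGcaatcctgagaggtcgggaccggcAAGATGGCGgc

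In these stretches MRPL30 and MRPS31 hold the ETS letters CCGGAAG, on opposite strands, and MRPS18A and MRPS10 hold them together with the YY1 letters AAGATGGCG. MRPS35 and MRPL11 show none of the 5 motifs searched. Over the whole windows and both strands, CCGGAAG was found in 29 of 67 member genes (43.3%), against 2438 of 14425 measured genes with a window (16.9%) and 12.2% of all 27305 genes in the table. AAGATGGCG was found in 12 of 67 (17.9%), against 3.37% of the measured genes and 2.14% of all genes. The ETS match began within 50 bases of a transcript start in 24 of the 29 genes and the YY1 match in 10 of the 12. The E-box CACGTG, bound by MYC among others, was in 9 of 67 (13.4%), against 10.9% and 8.77%. The palindrome of NRF1, GCGCA joined to TGCGC, was in 1 of 67 (1.49%), MRPL17, against 2.08% and 1.52%, and TGATGCAA, a composite element read by ATF4, in 0 of 67, against 0.943% and 1.08%. The ETS letters were in 17 of 41 large subunit and 12 of 26 small subunit genes. At least 2 of the ETS, YY1 and NRF1 motifs were found in 4 of 67 member genes (5.97%, against 0.945% of all genes). None of the 5 motifs was found in 24 of 67 (35.8%, against 77.4% of all genes). No matches of different motifs overlapped in the members. The shares were not matched on base composition, and a match describes letters, not binding of a factor. Only exact letters were searched, so a site that departs from them was not counted, for NRF1 as for the others.

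**Figure D1:**
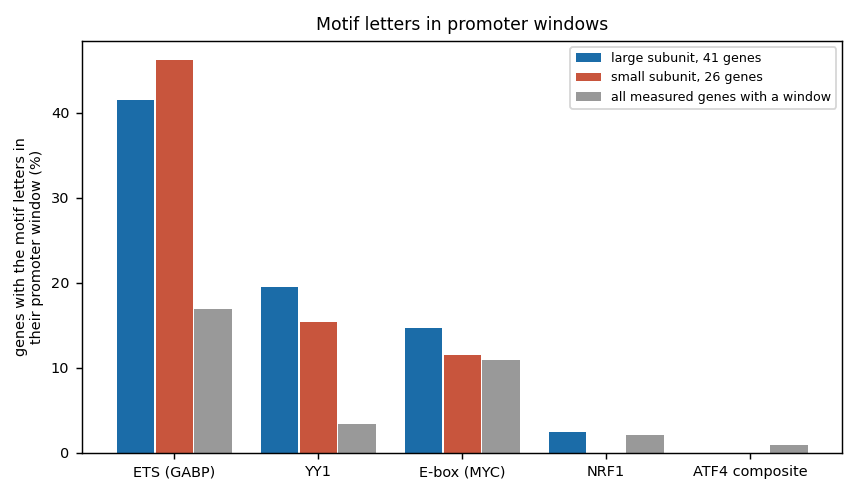
Share of genes, in percent, whose promoter window holds the letters of each of 5 motifs, for the large subunit (41 genes), the small subunit (26 genes) and the 14425 measured genes with a window. The ETS letters stand at 41.5% and 46.2% in the subunits against 16.9%, and the YY1 letters at 19.5% and 15.4% against 3.37%.

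Setting exosome against PBS arrays asks which LNCaP transcripts differ in cells that received the vesicles. In RNA from whole cultures, fewer cells of a kind and less RNA per cell cannot be told apart. For the mitochondrial ribosome 0 of 74 genes were higher and 0 lower at an adjusted p under 0.05 (limma, Benjamini-Hochberg over 18132 genes), where 0.888% of all genes passed, 0.700% higher and 0.188% lower. These all-gene counts, 127 and 34, were 60 and 326 with arrays centred on the poly-A spike-ins, 2 and 0 with the replicate number as a block, and 28 to 40 and 4 to 7 with an array left out. Without adjustment, at a p under 0.05, the count was 2 members up and 2 down, which is 5.41% of them against 10.9% of all genes (5.76% and 5.16%). With the spike-in centring 34 of 74 lay lower at that p (45.9%, against 20.7% of all genes). The median SE on the deposited scale was 0.047 in the members and 0.078 in all genes. The fitted log2 fold changes, exosomes over PBS, ran from -0.13 to 0.18, and in 68 of 74 genes the change was under 0.1. Each gene's 95% interval from the fit stands for that gene alone, not jointly for the 74. It rests on the spread between arrays of a group, which may be technical alone. The highest bound over the 74 genes was a 1.21-fold rise and the lowest a 1.18-fold fall. A missed threshold does not show that a gene stayed the same, and these bounds hold for the brightest probe sets on the deposited scale. Over all 164 probe sets the bounds reached -0.43 and 0.42 on the log2 scale. With arrays centred on the poly-A spike-ins the lowest fitted value, of MRPL11, was -0.27, in a fit whose median over all genes was -0.15. The smallest two-sided p of an exact permutation test on 2 against 2 arrays is 0.333, and the p-values given here therefore rest on limma's variance model.

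**Figure D2:**
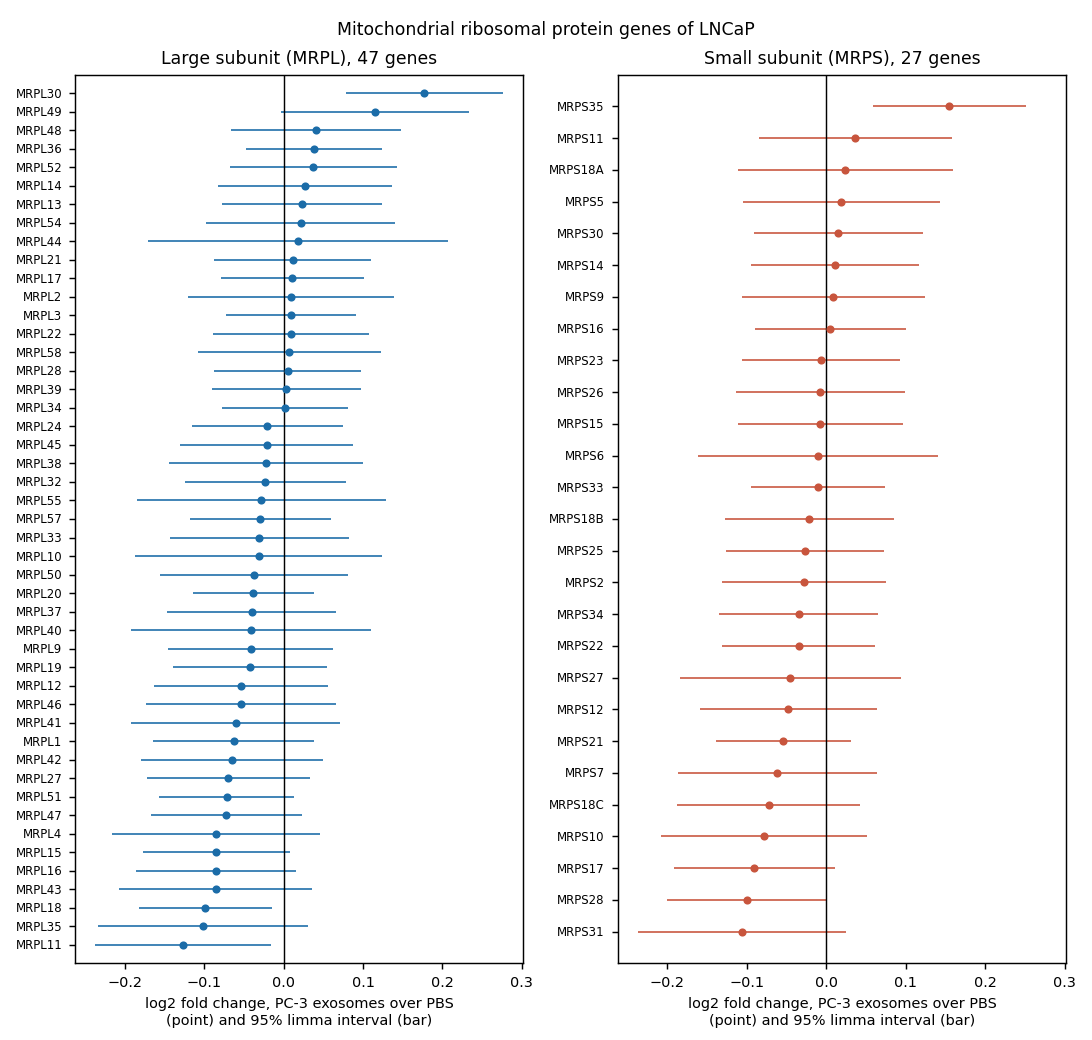
Log2 fold change of PC-3 exosomes over PBS for each of the 47 large and 27 small subunit genes (point, brightest probe set) with its 95% limma interval (bar), ordered by size. MRPL30, MRPS35, MRPL18 and MRPL11 are the 4 genes whose interval leaves out 0, and no gene passed the adjusted threshold.

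The highest fitted value belonged to MRPL30, the homolog of bacterial L30 in the large subunit. Its brightest probe set read 3220 and 3068 with exosomes, against 2820 and 2741 with PBS. The exosome arrays both lay above the PBS arrays, with a log2 fold change of 0.18 (SE 0.044, limma adjusted p = 0.141). The other 2 probe sets of MRPL30 gave 0.098 and 0.10, and only in the dimmer of them did the groups not overlap. Leaving out 1 array at a time kept the value between 0.14 and 0.21. With arrays centred on the poly-A spike-ins MRPL30 was at 0.037, in a fit whose median over all genes was -0.15.

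MRPS35, a small subunit protein that bacteria lack, came next. Its intensity was 4178 and 4305 with exosomes, against 3906 and 3714 with PBS. The groups did not overlap, at a log2 fold change of 0.16 (SE 0.042, limma adjusted p = 0.192), and its other probe set gave 0.16 with overlapping arrays. MRPL49, found in mitochondria only and represented by 1 probe set, was at 2216 and 2310 with exosomes, against 2178 and 2005 with PBS. That is a log2 fold change of 0.11 (SE 0.052, limma adjusted p = 0.474), and without the second PBS array it was 0.055. In MRPL48, also without a bacterial counterpart, the arrays read 1195 and 1190 with exosomes and 1163 and 1155 with PBS, close together within each group but only 0.041 apart on the log2 scale (adjusted p = 0.834 by limma). When the arrays were centred on the poly-A spike-ins, MRPS35 was at 0.015, and MRPL49 and MRPL48 lay below 0. That scaling puts the median of all genes at -0.15.

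At the low end MRPL18 was the member with the most probe sets that all pointed one way without overlap. MRPL18 is the homolog of bacterial L18, part of the central protuberance of the large subunit, and human cells under heat stress also make a cytosolic form of it. The brightest of its 3 probe sets read 8712 and 8281 with exosomes and 9140 and 9050 with PBS, a log2 fold change of -0.099 (SE 0.037, limma adjusted p = 0.356). The other 2 read 3190 and 2875 with exosomes against 3469 and 3409 with PBS, and 2502 and 2371 against 2731 and 2602, with log2 fold changes of -0.18 and -0.13. All 3 had an unadjusted p under 0.05, and none passed when every probe set was tested (lowest adjusted p = 0.381 by limma). Probe sets of 1 gene share the RNA and the array, so they are no replicates of the treatment.

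MRPL11, homolog of the bacterial L11 that sits where translation factors dock, had the lowest fitted value. Its brightest probe set was at 1695 and 1601 with exosomes, against 1825 and 1772 with PBS, a log2 fold change of -0.13 (SE 0.049, limma adjusted p = 0.379), and its other probe set also gave -0.13. MRPL15, homolog of bacterial L15, read 3208 and 3098 with exosomes and 3368 and 3319 with PBS (log2 fold change -0.085, SE 0.041). Both of its probe sets were without overlap. In MRPS31, a small subunit protein of mitochondria only, the values were 852 and 799 with exosomes and 912 and 865 with PBS (log2 fold change -0.11, SE 0.058, limma adjusted p = 0.559). MRPL11, MRPL15, MRPL18 and MRPS31 were the 4 of 46 genes with over 1 probe set in which each probe set lay lower with exosomes without overlap, and 0 lay higher in that way. That is 8.70% of the 46, where over all 11734 genes with more than 1 probe set 3.73% lay lower and 3.34% higher in every one. MRPS31 belongs to the 4 only through a second probe set whose group means lie under the background controls.

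**Figure D3:**
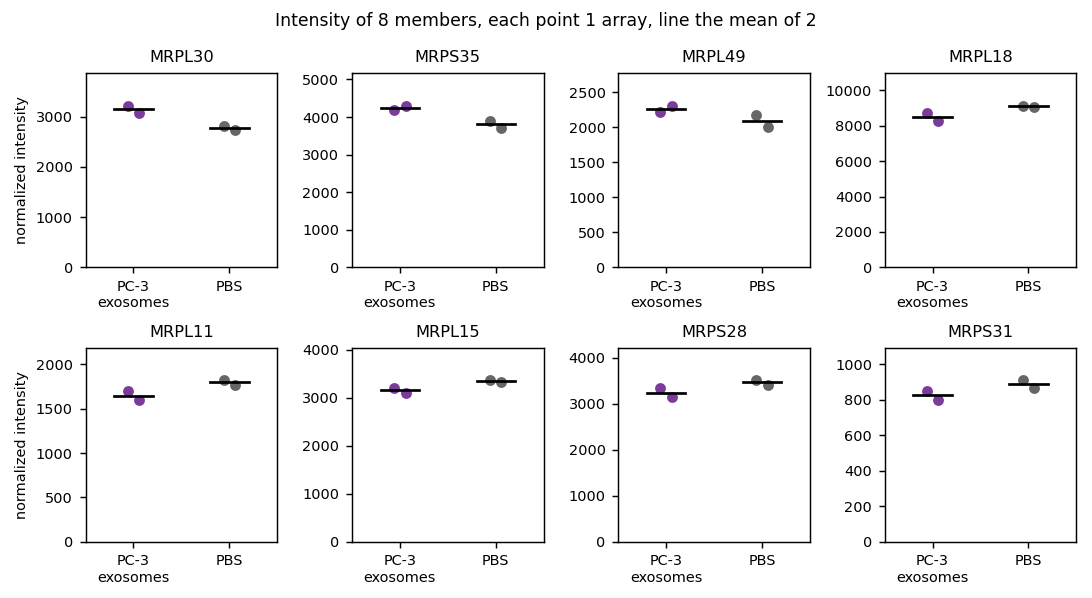
Normalized intensity of 8 members in each array (points) with the mean of the 2 arrays of a group (line), PC-3 exosomes left and PBS right, each axis from 0. MRPL30, MRPS35 and MRPL49 sit higher with exosomes and MRPL18, MRPL11, MRPL15, MRPS28 and MRPS31 lower, by small fractions of their level.

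The remaining named genes had smaller or less even differences. MRPS28, named as the homolog of bacterial S1, read 3333 and 3139 with exosomes and 3517 and 3416 with PBS (log2 fold change -0.100, SE 0.045, limma adjusted p = 0.463), but its other probe set gave 0.050. MRPS17, homolog of bacterial S17, had 4 probe sets, all below 0 and from -0.18 to -0.018. Its brightest read 3173 and 2997 with exosomes and 3335 and 3234 with PBS. MRPL35 illustrates how probe sets can part: the brightest read 731 and 685 with exosomes and 745 and 775 with PBS, at -0.10, whereas the 4 probe sets of the gene spanned -0.10 to 0.15. MRPL16, homolog of L16, and MRPL51, which bacteria lack, had 1 probe set each and log2 fold changes of -0.085 and -0.072, without overlap between the groups. MRPS21, homolog of bacterial S21, had 4 probe sets that lay close to each other, from -0.068 to -0.053.

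MRPS10 at -0.079, MRPS7 at -0.062 and MRPS11 at 0.037, all with bacterial homologs, had arrays that overlapped between the groups. MRPS11 had 6 probe sets, which ran from -0.096 to 0.037. MRPL43, the other member with 6, had a range of -0.086 to 0.14.

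Human cells carry 3 homologs of bacterial S18. MRPS18C, found at the place of S18 in the small subunit, read 2679 and 2483 with exosomes and 2781 and 2647 with PBS, a log2 fold change of -0.073 (SE 0.051). MRPS18B, also of the small subunit but counted here among the proteins of mitochondria only, read 2064 and 1961 with exosomes and 2012 and 2073 with PBS, at -0.022 (SE 0.047). MRPS18A, which structures place in the large subunit in spite of its name, read 946 and 863 with exosomes and 902 and 876 with PBS, at 0.024 (SE 0.060). The arrays overlapped in all 3 homologs. MRPS30 is the other protein with a small subunit name and a place in the large one, and it read 1668 and 1702 with exosomes and 1705 and 1630 with PBS, at 0.015 (SE 0.047).

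Taking the subunits one against the other, the median log2 fold change was -0.029 over the 47 large subunit genes and -0.022 over the 27 small subunit genes, beside -0.012 over all genes. The difference of these medians, large minus small, was -0.0079. All 74 members were at or above the median level of all genes. Over the 9066 genes at or above that level the median log2 fold change was 0.0018. The members lay at -0.029 relative to those genes, against -0.016 relative to all genes. The shares of all genes given here were not matched on level. Values above 0 were found for 18 of 47 large and 8 of 27 small subunit genes, so that 61.7% and 70.4% lay below 0, against 56.0% of all genes. Large subunit proteins with a bacterial homolog had a median of -0.030 (29 genes), those of mitochondria only -0.026 (18 genes). In the small subunit the medians were -0.028 (15 genes) and -0.024 (10 genes). With MRPS18A and MRPS30 counted in the large subunit, the medians were -0.028 and -0.027. The difference between the subunits ran from -0.0084 to -0.0019 with 1 array left out, and it was 0.0071 when the mean of each gene's probe sets was used. Single arrays also set the median over the 74 genes, which was -0.028. It was -0.043 without the first exosome array, -0.00098 without the second, -0.00067 without the first PBS array and -0.040 without the second. The all-gene medians in those fits were -0.019, -0.0041, -0.0096 and -0.011. So the members lay at -0.024 and -0.028 relative to all genes in the first and last of these fits, and at 0.0032 and 0.0089 in the other 2.

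Both exosome arrays lay above both PBS arrays in 4 members and below both in 18, together 29.7% of the 74 genes, where 39.8% of all genes do so. By direction that is 5.41% higher, against 17.8% of all genes, and 24.3% lower, against 21.9%. The large subunit had 3 and 12 of these genes, the small subunit 1 and 6. Of the 12 lower ones in the large subunit 10 have a bacterial homolog, and 29 of the 47 genes do. That is 34.5% of the 29, and 11.1% of the 18 of mitochondria only, beside the 21.9% of all genes. In the small subunit it was 4 of 15 (26.7%) with a bacterial homolog and 2 of 10 (20%) without. Whether these shares differ was not tested.

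On the deposited scale, the members lay mostly on the same side between the arrays of a group. The first exosome array was above the second in 64 of 74 genes (86.5%, against 55.2% of all genes), by a median of 0.061 on the log2 scale. The first PBS array was above the second in 58 of 74 (78.4%, against 53.2% of all genes), by a median of 0.045. The PBS count depends on the scaling: it was 47 of 74 after quantile normalization (median gap 0.014) and 5 of 74 with arrays centred on the poly-A spike-ins (median gap -0.083, against -0.12 in all genes). The exosome count was 64 and 71 under those scalings. On the deposited scale both held in 50 genes, or 67.6%, against 29.1% of all genes. Sign left aside, the gap between 2 arrays of a group had a median of 0.064 with exosomes and 0.058 with PBS. The change between group means had a median size of 0.036 in the members and 0.063 in all genes.

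Array by array, each gene was set against its own mean over the 4 arrays. The median of the large subunit genes was 0.014 and -0.035 with exosomes, against 0.037 and -0.011 with PBS, and that of the small subunit genes 0.016 and -0.043 with exosomes and 0.034 and -0.016 with PBS. In both subunits, on this scale, the 2 first arrays lay above 0 and the 2 second arrays below it. Large minus small was -0.0018 and 0.0086 with exosomes, against 0.0034 and 0.0055 with PBS. So the subunits stayed within 0.0086 of each other in every array, while arrays of 1 group lay up to 0.059 apart. Cytosolic ribosomal proteins, of which 64 genes were measured, had medians of 0.0047 and -0.0045 with exosomes, against -0.00082 and 0.0036 with PBS. For beta-actin, whose 3' over 5' signal tells of RNA quality, that ratio stood at 6.83 and 5.39 on the exosome arrays and 5.74 and 7.17 on the PBS arrays. The same ratio for GAPDH was 1.35 and 1.34 on the exosome arrays and 1.32 and 1.33 on the PBS arrays. Their part in the shared shift was not tested.

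**Figure D4:**
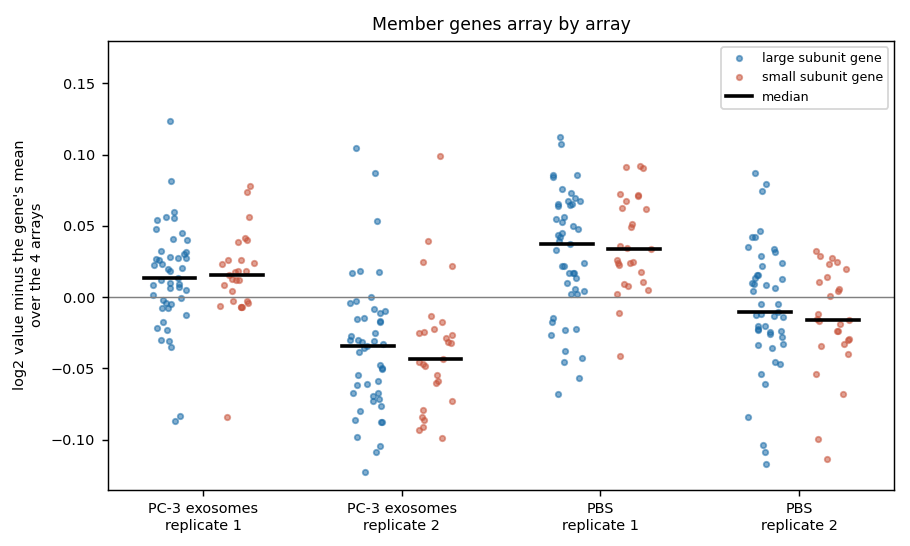
Log2 value of each member gene minus its own mean over the 4 arrays, large subunit left and small subunit right in each array, with the median of each subunit (black line). On the deposited scale the medians lie above 0 on the first array of each group and below 0 on the second, in both subunits.

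Tested as probe sets, 0 of 164 passed in either direction by limma, where 0.258% of 44988 probe sets did. Unadjusted, 7 of 164 had a p under 0.05, or 4.27% against 8.87%. The groups did not overlap in 42 of 164 probe sets, or 25.6% against 37.7%. The 164 values ran from -0.18 to 0.19, with 65 above 0 and 99 below. Of the 46 genes with over 1 probe set, 4 had all of them above 0 (MRPL30, MRPS35, MRPL17 and MRPL3) and 16 all below 0, while 26 had probe sets on both sides. The gap between the highest and the lowest probe set of a gene had a median of 0.068. The fitted change of the 74 genes had a median size of 0.036. In 10 of the 164 probe sets both group means lay under the mean of the background controls, among them the second probe set of MRPS31, at 18.6 and 19.5 with exosomes and 20.3 and 22.9 with PBS. No brightest probe set of the 74 genes did.

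**Figure D5:**
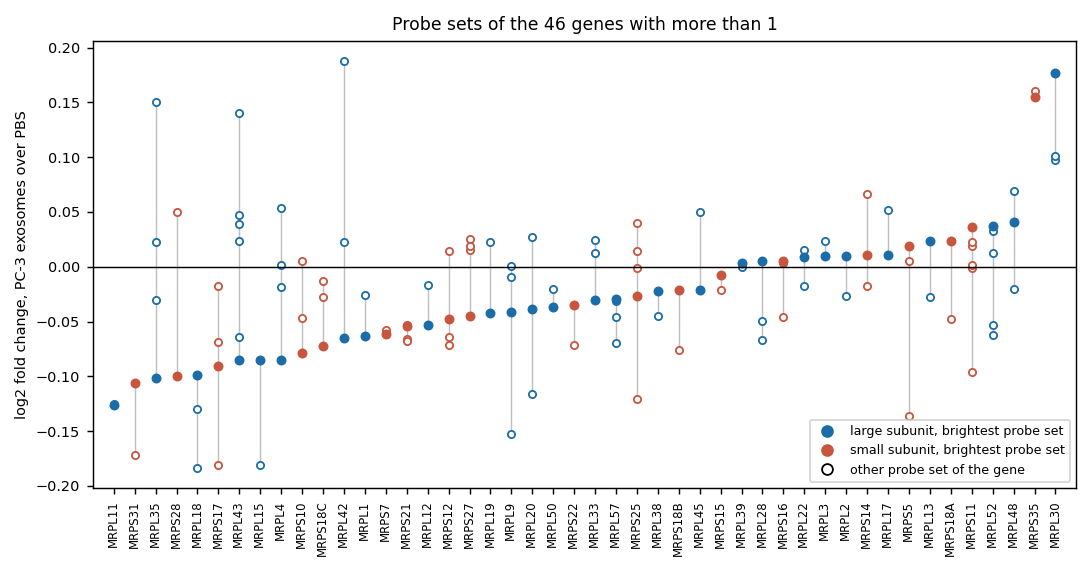
Log2 fold change of PC-3 exosomes over PBS for every probe set of the 46 member genes with more than 1, the brightest filled and the others open, genes ordered by the brightest. In 26 genes the probe sets lie on both sides of 0.

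Other genes of mitochondrial translation were read from lists, and 0 genes passed in any of them. Listed as mitoribosomal under other symbols were 5 measured genes. GADD45GIP1, a large subunit protein, was at 2398 and 2236 with exosomes, against 2584 and 2477 with PBS (log2 fold change -0.13, limma adjusted p = 0.379). OXA1L, placed on this list although its work is to insert new proteins into the inner membrane, was at 0.048. Assembly factors of the mitochondrial ribosome (24 measured) had a median of 0.0052. The rRNA methyltransferase MRM1 was at 133 and 129 with exosomes, against 112 and 118 with PBS (0.18, limma adjusted p = 0.450), and the rRNA methyltransferase NSUN4 at 0.12. Among translation factors (14 measured, median -0.0087), MTFMT, which formylates the initiator methionine, had -0.15 (limma adjusted p = 0.383). The release factor family member MTRF1 had 0.25 (limma adjusted p = 0.391).

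Genes of mitochondrial transcription and RNA processing (19 measured) had a median of -0.025, with 13 below 0. TFAM, which packs the mitochondrial genome and takes part in its transcription, was at 1018 and 948 with exosomes, against 1104 and 1073 with PBS. The exosome arrays were both lower, at a log2 fold change of -0.15 (SE 0.055, limma adjusted p = 0.352). ELAC2, which trims the 3' end of tRNAs, had -0.073.

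Among regulators of mitochondrial biogenesis (8 measured, median 0.032), the nuclear receptor ESRRA was at 1326 and 1280 with exosomes, against 1122 and 1176 with PBS. Its groups did not overlap, at 0.18 (SE 0.051, limma adjusted p = 0.203). PPARGC1B, a coactivator of ESRRA, was at 112 and 126 with exosomes, against 131 and 158 with PBS, at -0.28 (SE 0.11, limma adjusted p = 0.378). The cytosolic ribosomal proteins had a median of -0.0027, with 25 of 64 above 0 and a range of -0.055 to 0.12. The smallest p among them belonged to RPL27A (0.12, limma adjusted p = 0.612) and RPS7 (-0.055, limma adjusted p = 0.615).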

How the data were processed

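The deposited table holds 1 normalized intensity per probe set and array, on a linear scale, for 49395 probe sets. MAS5 and RMA are named in the submitters' processing notes, with neither role nor version, and the genome build is not given in the sources used here. Of the probe sets 102 were controls, 44988 named 1 gene, 1832 several and 2473 none. The tests used log2(intensity + 1), and folds are on that scale. The probe set with the highest mean stood for a gene. The fit was made in R 4.3.3 with limma 3.58.1 (lmFit, eBayes with a trend, 2 residual and 6.99 prior degrees of freedom), exosomes minus PBS, two-sided, adjusted over all genes. In simulated data of 18132 genes log2 changes of 0.25, 0.5 and 1 were called in 10%, 66% and 100% of the altered genes. These were drawn over all genes, so the rates are not those of the members.

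The members, lists and tests were chosen with earlier results of these data known, so no p is given over a list. Named were the 8 genes of each subunit with the smallest p, the 3 highest and 3 lowest, the MRPS18 paralogs and MRPS30, members without overlap in every probe set, and from each list the 2 with the smallest p, since 0 passed. MRPL3, MRPL17 and MRPL43 were named after their values were seen. Alternatives were the pseudocount, 3 scalings, a filter on level, the summary of probe sets, the variance model, the replicate number as a block, and each array left out. Deviations of same-numbered arrays correlated at -0.040, so the numbers were not taken to pair the arrays. That correlation was taken over all genes and does not describe the members alone. With 2 arrays a group it is the same for both numbers by construction. The number of arrays limits the precision. Figures were drawn with matplotlib 3.10.9.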

Additional observations from a re-analysis of the deposited data

How the results depend on the processing

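No member gene passed the threshold under the 14 alternatives, and no probe set with any array left out. Over the alternatives of the 21 named genes the lowest adjusted p was 0.059 (limma), for MRPL11 with arrays centred on the poly-A spike-ins, where MRPL11 was at -0.27 and its adjusted p elsewhere ran up to 1.00. That scaling puts the median of all genes at -0.15, against -0.012 without it, so its values are relative to that shift. The large subunit stood at -0.17 and the small at -0.16 there, and MRPL48, MRPL49, MRPS11, MRPS18A and MRPS30 went below 0. The difference between the subunits was 0.0071 with the mean of each gene's probe sets, -0.0013 with every probe set and -0.00095 with MRPS18A and MRPS30 in the large subunit. It ran from -0.0084 to -0.0019 with an array left out. The median over the 74 genes then ran from -0.043 (without the first exosome array) to -0.00067 (without the first PBS array), with 12 and 35 of 74 above 0. Of 294 values for named genes 281 kept their sign. The filter on level, the fit of every probe set, the variance models and the replicate block leave a named gene's fold change as it was. Their values are among the 281 by construction, so the count does not measure stability. The replicate block called 0 members, with an unadjusted p under 0.05 in 2 that were higher and 5 that were lower. The share of all genes under that p in the block fit is not given here, so these counts stand without a base rate. Over all genes the replicate block called 2 higher and 0 lower at the adjusted threshold, in place of 127 and 34. The gap between arrays of a group was recomputed under the scalings after the data were seen. Relative to all genes it was 0.048 for the exosome arrays and 0.035 for the PBS arrays on the deposited scale. Centring on the median or the spike-ins moves all genes of an array alike, so it cannot change this relative gap. With the quantile scaling, which can, it was 0.049 and 0.026. Over all genes, the filter on level called 213 higher and 84 lower, the quantile scaling 181 and 68, and eBayes without a trend 18 and 3. In simulated data, 10% of changes of 0.25 on the log2 scale were called. The altered genes were drawn over all genes with independent noise. The members had a smaller median SE (0.047 against 0.078) and shared shifts between arrays, so 10% is not their rate.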
